A study of Mus musculus with 6 samples.

Results

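The genes described are components and regulators of complement, the cascade of plasma and tissue proteins that marks surfaces for clearance. They were chosen by name, as the probe sets that carry exactly 1 gene symbol in the platform annotation and whose symbol is on a list of 9 complement genes. The list was drawn up with earlier results of these data known, so comparisons of its members with all genes are description. Of the 9, 6 were found (C1ra, C1s1, C2, Cfb, Serping1 and Cd55), with 10 probe sets, among 18193 genes with such a probe set. C4b was listed only on a probe set shared with C4a, and C3 and Cfd matched no listed symbol, so these 3 were not analysed here. Expression was measured in 6 samples labelled as epithelium of the choroid plexus, from B10.PL mice, a strain congenic for its major histocompatibility complex, each on 1 single-colour oligonucleotide array. Every title also reads "Whole brain", and what that part of the label means is not stated. By the descriptions 3 samples came from wild type (WT) mice and 3 from RAG-/- mice of the same strain. RAG-/- mice lack a recombinase gene needed to build antigen receptors and have no mature T or B cells, and the labels do not say which of the RAG genes was disrupted. Nothing used here states age, sex, treatment or any pooling of animals, so the p-values reflect only how far these preparations differ, and that may be technical.

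A code in the titles joins 1 WT and 1 RAG-/- array into each of 3 pairs. In pair 1 the description states that the samples had been reversed and contradicts the genotype in both titles. Groups are given by description unless "by title" is written, and by title only pair 1 changes sides. Rag1 was dim, at 4.60, 6.92 and 6.31 in the arrays labelled RAG-/- and 6.54, 4.16 and 4.35 in those labelled WT, on the log2 scale explained next. By description the groups overlapped, with a difference of 0.93 (exact permutation p = 0.3), and in pair 1 Rag1 was lower in the array described as RAG-/-, by -1.94, but higher in pairs 2 and 3, by 2.76 and 1.96. By title it was higher in the RAG array of all 3 pairs, without overlap, with a difference of 2.22 (exact permutation p = 0.1, the smallest possible). Rag1 did not pass the brightness filter, and of the genes that did, 2.2% were higher without overlap by title. Rag1 was thus not lower in RAG-/- under either reading, which part of the gene its probe set reads is unknown here, and directions below refer to the arrays as labelled. RAG-/- replicate 2 stood apart, at 106 on a first principal component (48.4% of variance) on which the other arrays lay between -69.3 and 31.2. Ttr, the carrier protein that marks this epithelium, was bright on all arrays, between 14.69 and 14.83. At such brightness quantile normalization allows only small differences. The mean of the epithelial markers was 12.58 in RAG-/- replicate 2 and between 13.35 and 13.63 on the other arrays. Of these markers 13 of 13 measured passed the brightness filter. So did 26 of 26 markers of stromal fibroblasts, 12 of 12 of macrophages and microglia, 10 of 11 of endothelium and 8 of 8 of neurons, so the preparations were not epithelium alone.

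Complement is started on antibody or other targets by C1, in which the proteases C1r and C1s are activated in turn. C1s cleaves C4 and C2, whose fragments form the classical C3 convertase, while factor B supplies the protease of the alternative convertase. Serping1, the C1 inhibitor, inactivates C1r and C1s, and Cd55, decay-accelerating factor, takes convertases apart on the cell surface. In brain, complement proteins are made locally by several cell types as well as entering from plasma.

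Values are quantile-normalized log2(deposited intensity + 16), which understates changes of dim probe sets. Percentiles are those of the mean over arrays among 45037 probe sets. They rank brightness, which also depends on each probe set's own hybridization, and say nothing of relative transcript amounts. By this rank Serping1 was at percentile 87.8, the Cd55 probe sets were at 84.4, 78.7 and 74.6, and those of C2 at 68.6, 57.7 and 46.0. C1ra was at 58.0 and C1s1 at 55.9. Cfb, at 31.8, was the only member gene whose probe set fell in the lowest 40% and was left out of the fit across probe sets, which kept 9 of the 10 probe sets. The members varied widely over the 6 arrays, with a median SD of 0.81 against 0.41 over the 13537 genes above that cut-off. The members' median includes Cfb, which is not among those genes and had an SD of 0.93. Serping1 had a larger SD than 94.4% of genes, while that of C2, 0.46, was larger than that of 58.6%.

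The initiating proteases of the classical pathway were dim to moderate and highest in pair 1. C1ra was at 8.15, 7.28 and 7.15 in WT replicates 1, 2 and 3, and at 7.93, 5.71 and 7.01 in RAG-/- replicates 1, 2 and 3. The groups overlapped, since RAG-/- replicate 1 lay above WT replicates 2 and 3, and RAG-/- replicate 2 was far below every other array. The difference, RAG-/- minus WT, was -0.64 (SE 0.57, 95% interval -1.95 to 0.67; limma adjusted p = 1), from 7.52 ± 0.54 to 6.88 ± 1.11 (SD, n = 3). It was -0.06 without RAG-/- replicate 2 and -1.15 without RAG-/- replicate 1.

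C1s1 was at 7.67, 7.33 and 6.68 in WT and at 7.44, 6.52 and 6.54 in RAG-/- replicates 1, 2 and 3. Here both RAG-/- replicates 2 and 3 were low, and WT replicate 3 was nearly as low. The difference was -0.39 (SE 0.40, 95% interval -1.32 to 0.54; limma adjusted p = 1), and ran from -0.68 without RAG-/- replicate 1 to -0.17 without WT replicate 1. The C1s1 probe set is of the kind whose name ends in _s_at, which can detect more than 1 transcript or gene. C1rb and C1s2, near copies of these genes, had no probe set of their own here, so signal from them cannot be separated from that of C1ra and C1s1.

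C2, which C1s cleaves, had 3 probe sets that did not agree. The brightest, 1441912_x_at, read 8.78, 7.70 and 8.72 in WT and 8.01, 7.77 and 8.22 in RAG-/- replicates 1, 2 and 3. The next, 1457664_x_at, read 7.72, 6.87 and 7.79 in WT and 6.64, 6.86 and 7.17 in RAG-/-. Both were high in WT replicates 1 and 3 and low in WT replicate 2, and their differences were -0.40 (SE 0.37) and -0.57 (SE 0.36). Without single arrays the brightest ran from -0.75, without WT replicate 2, to -0.21, without WT replicate 1. The dimmest, 1416051_at, read 7.20, 4.87 and 6.94 in WT and 6.11, 6.57 and 6.59 in RAG-/-, a difference of 0.09 (SE 0.60), because its low value in WT replicate 2 pulled down the WT mean. The limma adjusted p was 1 for each. Probe sets ending in _x_at may hold probes that also match unrelated sequences.

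Cfb, the neighbour of C2 in the major histocompatibility complex with no protein-coding gene between them in the gene table, ordered the arrays differently. It read 6.43, 5.04 and 4.93 in WT and 7.03, 4.75 and 5.91 in RAG-/- replicates 1, 2 and 3, so both arrays of pair 1 were the highest. The difference was 0.43, from 5.47 ± 0.84 to 5.90 ± 1.14 (SD, n = 3), with an exact permutation p of 0.7 (two-sided; 0.1 is the smallest that 3 against 3 arrays allow). Its deposited intensity ran from 13.4 to 104, and ratios at such dim levels depend on the background estimate.

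Serping1, the inhibitor of C1r and C1s, was the brightest member by rank and had the widest range. It was at 11.86, 10.39 and 10.34 in WT and at 10.59, 8.72 and 10.16 in RAG-/- replicates 1, 2 and 3. WT replicate 1 stood above all other arrays and RAG-/- replicate 2 below them, and RAG-/- replicate 1 exceeded WT replicates 2 and 3, so the groups overlapped. The difference was -1.04 (SE 0.58, 95% interval -2.37 to 0.30; limma adjusted p = 1), from 10.86 ± 0.87 to 9.82 ± 0.98 (SD, n = 3; exact permutation p = 0.4). The difference was -0.50 without RAG-/- replicate 2 and -1.42 without RAG-/- replicate 1, and by title it was -0.19 (SE 0.68).

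Cd55, which protects host cells from their own convertases, set 1 array apart from the rest. Its brightest probe set, 1418762_at, was at 10.30, 9.99 and 9.92 in WT and at 10.19, 8.41 and 10.51 in RAG-/- replicates 1, 2 and 3. RAG-/- replicate 2 was the lowest array at all 3 Cd55 probe sets, at 7.95 for 1460242_at and 7.81 for 1443906_at, where the other arrays lay at 9.27 to 9.63 and 8.48 to 9.40. The 3 differences were -0.37 (SE 0.53), -0.44 (SE 0.46) and -0.06 (SE 0.45), with a limma adjusted p of 1 for each. Without RAG-/- replicate 2 the brightest probe set differed by 0.28, in the opposite direction.

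**Figure D1:**
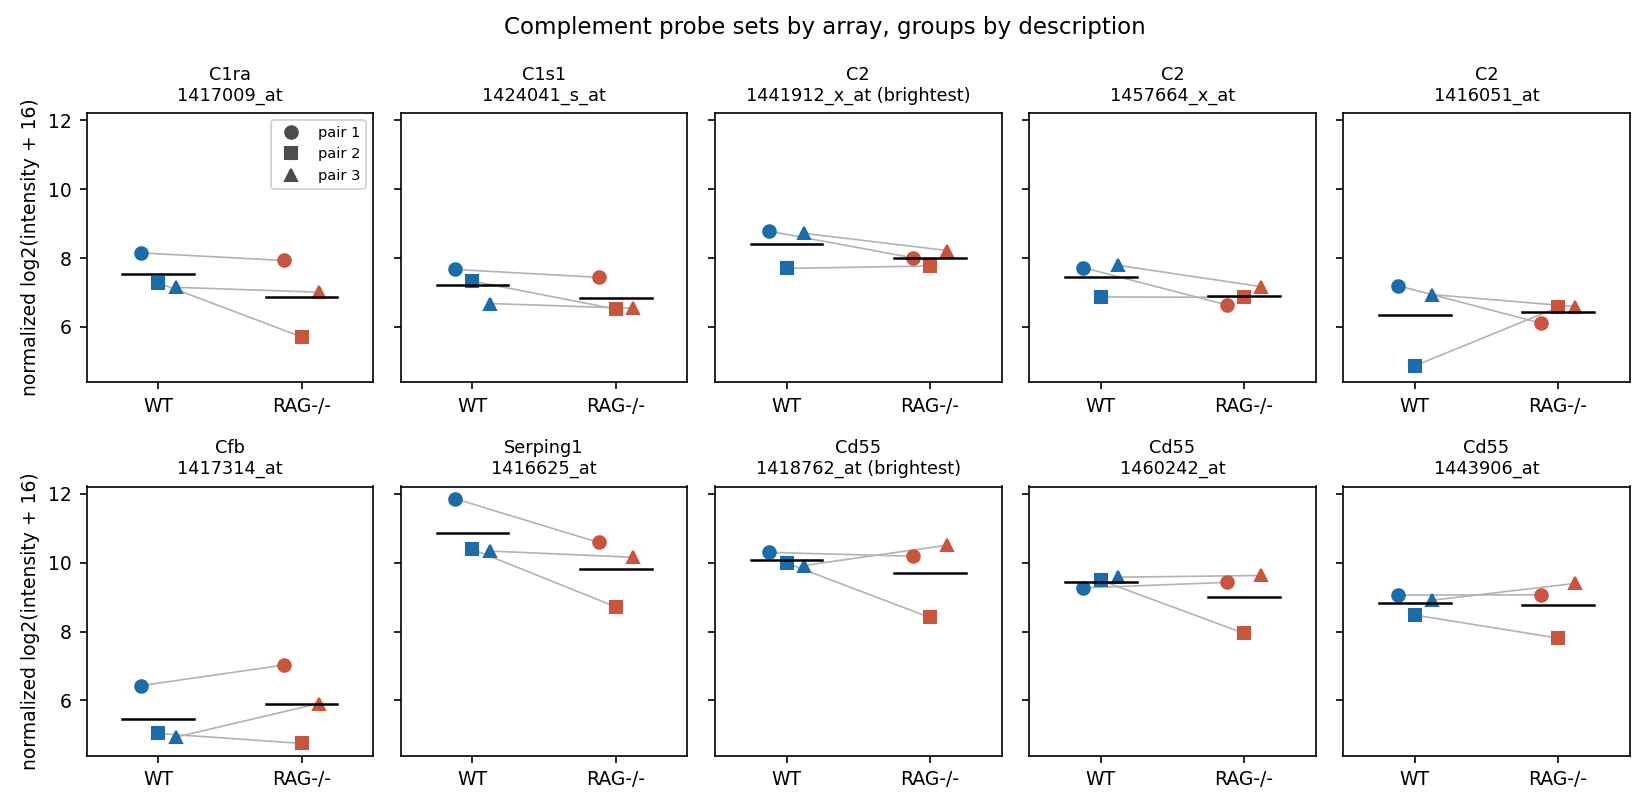
Normalized log2(intensity + 16) of the 10 probe sets of the 6 complement genes, WT at left and RAG-/- at right by description; each point is 1 array, the marker shape gives the pair, grey lines join the arrays of a pair and black bars are group means (n = 3). The groups overlap in every panel, and RAG-/- replicate 2 (square) is the lowest array for C1ra, C1s1, Cfb, Serping1 and all 3 Cd55 probe sets.

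Set against all genes, none of the 6 members separated the genotypes. With limma, 0 of the 9 member probe sets tested passed an adjusted p of 0.05 by description, where 0% of 27022 probe sets did (192 had an unadjusted p under 0.05). By title the members' count was also 0, where 0% of probe sets passed (332 under 0.05 unadjusted). With the pair as a block by title the members' count was 0 again, where 0.0037% of probe sets passed. The groups separated without overlap in 0 of the 6 members, where 1.41% of genes were lower and 1.69% higher in RAG-/- without overlap. By title 0 of the 6 separated, where 2.53% of genes were lower and 2.2% higher. At the brightest probe set of each gene, 5 of 6 members were lower by description, with a median of -0.40. Of the 13537 genes above the brightness filter, which leaves out Cfb, 51.1% were lower, with a median of -0.01. By title 4 of 6 were lower, with a median of -0.22 against -0.02 over all genes. The differences by title were -0.49 for C1ra, -0.24 for C1s1, 0.11 for C2, 0.03 for Cfb and -0.29 for Cd55, so C2 changed direction between the readings.

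By title the members' median rested on RAG-/- replicate 2. Without that array it was 0.36, with 1 of 6 lower, and without WT replicate 1 it was -0.59, with 6 of 6 lower. By description, leaving out single arrays kept the median between -0.65, without RAG-/- replicate 1, and -0.15, without RAG-/- replicate 2.

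Within the pairs, the C1 proteases and their inhibitor had differences of one sign. C1ra differed by -0.22, -1.56 and -0.14 in pairs 1, 2 and 3, and C1s1 by -0.23, -0.80 and -0.14. Serping1 differed by -1.27, -1.67 and -0.18. These 3 of the 6 members were lower in the RAG-/- array of every pair, where 11.3% of genes were. All 3 put the arrays in one order, given below, which fixes the sign in every pair, so they are not separate observations. By title pair 1 turns, and 0 of the 6 were lower in all pairs, where 15% of genes were. C2 differed by -0.76, 0.06 and -0.50, Cfb by 0.60, -0.29 and 0.98, and Cd55 by -0.11, -1.58 and 0.58. The members' median was -1.18 in pair 2, and -0.23 and -0.14 in pairs 1 and 3.

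**Figure D2:**
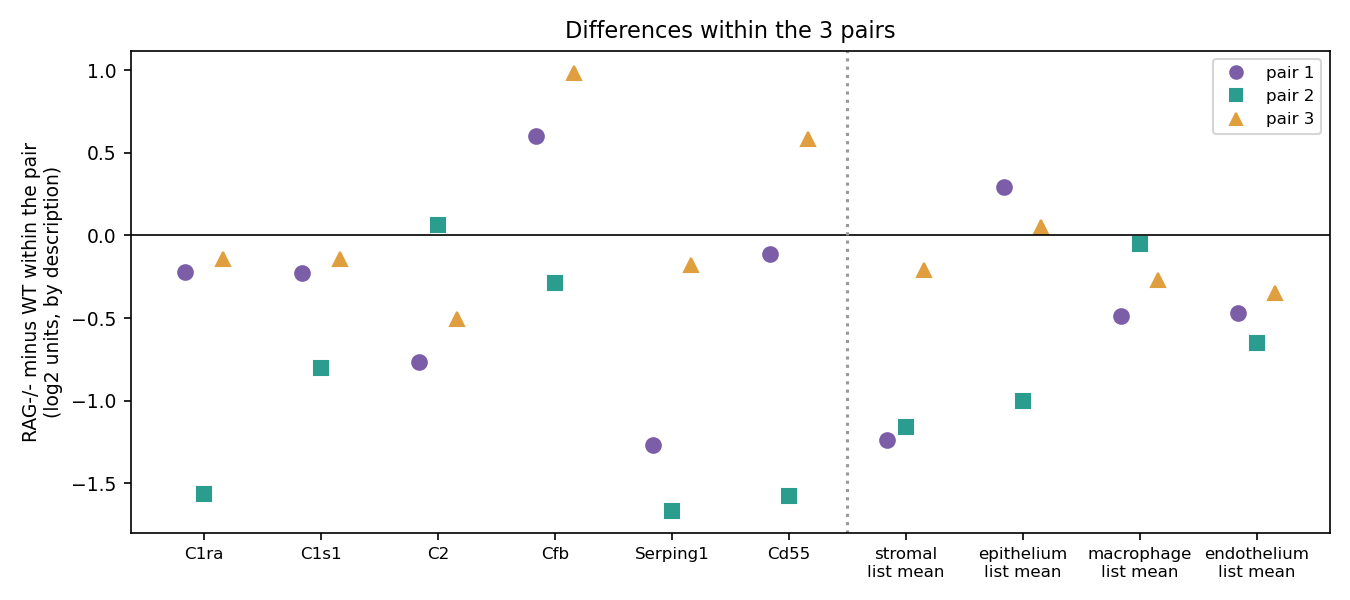
RAG-/- minus WT within each pair, in log2 units by description, for the brightest probe set of the 6 complement genes (left of the dotted line) and for the mean of 4 marker lists (right); each point is 1 pair. C1ra, C1s1 and Serping1 lie below 0 in all 3 pairs, and pair 2 (square) holds the lowest point of C1ra, C1s1, Cfb, Serping1 and Cd55.

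Among the members, C1ra, C1s1 and Serping1, singled out after their values were seen, put all 6 arrays in one order, from WT replicate 1 through RAG-/- replicate 1, WT replicate 2, WT replicate 3 and RAG-/- replicate 3 down to RAG-/- replicate 2. Of the 13536 genes other than Serping1, 36 had this order, which is 0.266%. Each of the 3 pairings had a Spearman rho of 1 (exact permutation p = 0.00278, the smallest that 6 arrays allow; 0.0139 after Benjamini-Hochberg adjustment over the 15 pairings of members). Pearson's r was 0.945 for C1ra with Serping1 (exact permutation p = 0.00139, the smallest possible; adjusted 0.0208), 0.786 for C1s1 with Serping1 (exact permutation p = 0.00417; adjusted 0.0312) and 0.826 for C1ra with C1s1 (exact permutation p = 0.0139; adjusted 0.0694). Without the 2 arrays farthest from the median, WT replicate 1 and RAG-/- replicate 2 in each case, r was 0.946, 0.870 and 0.823. The permutations treat the arrays as independent, although arrays of a pair resembled each other. The order also rests on small gaps, of 0.017 between neighbouring arrays for C1s1 and 0.047 for Serping1, and with the intensities as deposited rho was 0.886 for C1s1 with either partner and 1 for C1ra with Serping1.

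Over the 15 pairings r ran from 0.149, for C1s1 with C2, to 0.945, with a median of 0.628, and 2 passed 0.05 after adjustment. C2 with its neighbour Cfb reached an r of 0.239 (exact permutation p = 0.614; rho = 0.314, exact permutation p = 0.564; adjusted 0.658 and 0.564; r without the 2 farthest arrays 0.176).

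C1ra and C1s1 are direct neighbours in the gene table, with no protein-coding gene between them, and lie on opposite strands. The 250 bases before their start sites are shown because these members ranked the arrays alike. They come from the RefSeq table of build GRCm38.p6 (the C57BL/6J reference, not B10.PL), at chr6:124512371-124512620 (+) for C1ra and chr6:124542360-124542609 (-) for C1s1, for which the first of its listed start sites was taken. Both are written 5′ to 3′ and wholly in lower case, since neither motif searched was found in them.
C1ra: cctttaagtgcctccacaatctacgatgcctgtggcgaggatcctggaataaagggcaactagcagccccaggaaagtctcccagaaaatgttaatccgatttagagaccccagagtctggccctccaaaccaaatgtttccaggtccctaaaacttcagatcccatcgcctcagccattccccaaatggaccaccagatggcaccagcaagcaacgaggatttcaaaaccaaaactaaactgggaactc
C1s1: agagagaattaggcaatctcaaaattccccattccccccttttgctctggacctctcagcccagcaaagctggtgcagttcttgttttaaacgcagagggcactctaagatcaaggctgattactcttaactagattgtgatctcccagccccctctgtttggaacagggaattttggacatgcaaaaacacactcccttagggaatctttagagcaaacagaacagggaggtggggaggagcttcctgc
The motifs searched on both strands were the STAT-binding GAS element TTCNNNGAA and the TATA box TATAAA, in windows of 250 bases before to 50 after the start. They occur in 8.3% and 13.6% of all 32851 such windows. In the C1ra window the 1 match was a GAS element, TTCCCTGAA, beginning at base 33 after the start. The C1s1 window held 0 matches. These are matches of letters only. Of the 6 genes measured, Cd55 also had a window, with 0 matches of these motifs.

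**Figure D3:**
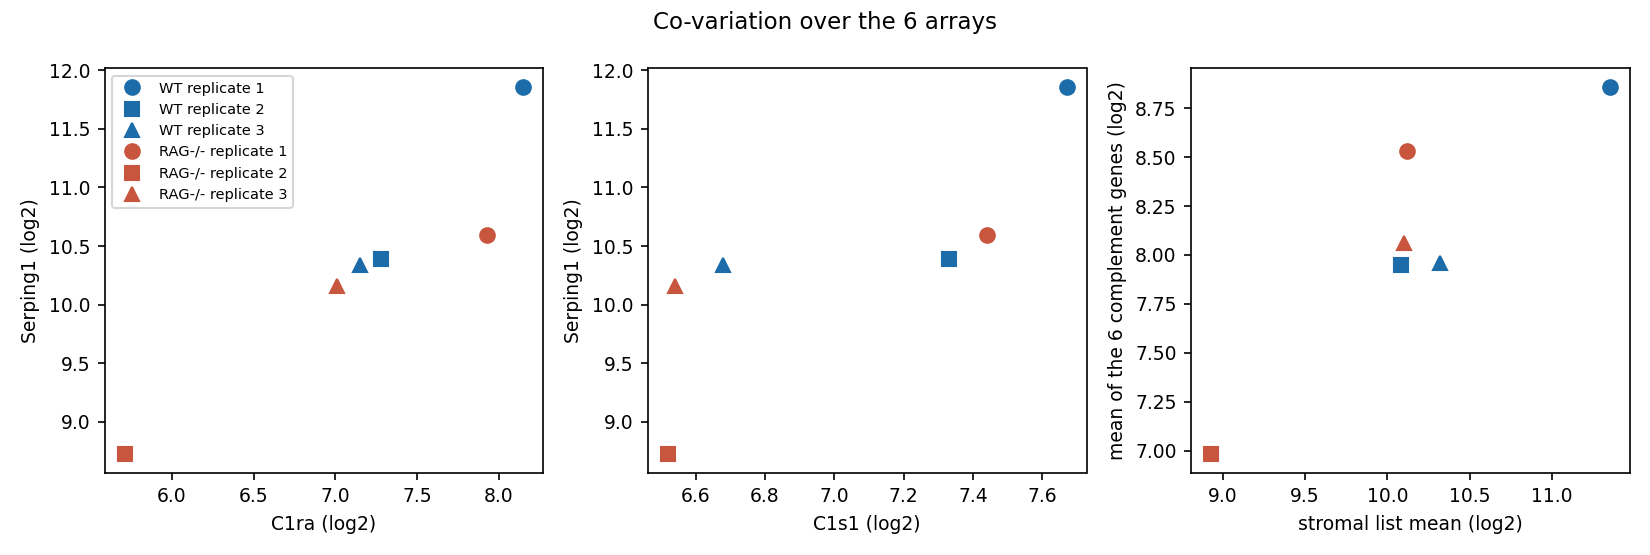
Each point is 1 array, coloured by group and shaped by pair; the left and middle plots set Serping1 against C1ra and C1s1, and the right plot sets the mean of the 6 complement genes against the mean of 26 stromal genes, all on the log2 scale. In the first 2 plots the arrays stand in the same order on both axes, and in the right plot WT replicate 1 (11.35, 8.86) and RAG-/- replicate 2 (8.93, 6.98) lie at the ends, away from the other 4 arrays.

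Stromal fibroblasts, which make collagen and matrix proteoglycans, are among the cells known to make complement components, and the members' mean was set against the mean of 26 stromal markers. The members' mean was 8.86, 7.95 and 7.96 in WT and 8.53, 6.98 and 8.06 in RAG-/- replicates 1, 2 and 3. The stromal mean was 11.35, 10.08 and 10.32 in WT and 10.12, 8.93 and 10.10 in RAG-/-. Both were highest in WT replicate 1 and lowest in RAG-/- replicate 2. Their correlation over the 6 arrays was r = 0.914 (exact permutation p = 0.0431; 0.111 adjusted over 13 marker lists) and rho = 0.829 (exact permutation p = 0.0583; adjusted 0.19). Without these arrays, the farthest from the median, r was -0.302 over 4 arrays, so the relation rests on them.

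Gene by gene, Serping1 followed the stromal mean most closely, with r = 0.983 (exact permutation p = 0.0389; 0.0889 adjusted over the 6 members) and rho = 0.714 (exact permutation p = 0.136; adjusted 0.204). Its r without the same arrays was -0.0678. C1ra, at r = 0.884, C1s1, at 0.675, Cfb, at 0.532, and Cd55, at 0.779, also had an r below 0 without them. C2 kept an r above 0, with r = 0.755 (exact permutation p = 0.0292; adjusted 0.0889) and rho = 0.886 (exact permutation p = 0.0333; adjusted 0.2), and r = 0.907 over the remaining 4 arrays. The stromal means of those 4 arrays lay only between 10.08 and 10.32, so r over them cannot show whether a relation holds or fails. The C2 values are of its brightest probe set alone. No relation of a member with the stromal mean passed 0.05 after adjustment, and the smallest adjusted p was 0.0889.

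The stromal list itself had 25 of 26 genes lower in RAG-/- by description (median difference -0.89), and 16 of 26 by title (median -0.08). It was not alone in this. By description 13 of 13 epithelial markers were lower (median -0.19), 11 of 11 of endothelium (-0.41) and 9 of 9 of pericytes and smooth muscle (-0.60). The mean of the epithelial markers was lower only in pair 2, with differences of 0.29, -1 and 0.05 in pairs 1, 2 and 3. Of granulocyte markers 7 of 7 were lower by description (-0.93), against 2 of 8 of neurons and 2 of 7 of astrocytes. Of macrophage and microglia markers 8 of 12 were lower (-0.21), and 6 of 12 by title (0.01). By title only 1 of 7 granulocyte markers (0.3) and 3 of 9 of pericytes and smooth muscle (0.22) were lower. Epithelium had 12 of 13 (-0.43) and endothelium 9 of 11 (-0.14) lower by title, neurons 3 of 8 and astrocytes 1 of 7. Oligodendrocyte markers were higher, with 0 of 9 lower under either reading and medians of 1.16 by description and 1.31 by title. By description the summed stromal intensity lay between 60442 and 115703 in WT and between 33649 and 63565 in RAG-/-. Its mean differed by -1.24, -1.16 and -0.21 in pairs 1, 2 and 3, and the members' mean by -0.33, -0.97 and 0.10. The stromal genes nearest to the members' mean were Islr, at r = 0.994, the matrix protein Fbln1, at 0.987, the collagen-binding proteoglycan Fmod, at 0.924, and Aldh1a2, an enzyme of retinoic acid synthesis, at 0.912. The part of stromal content in the members' values was not tested. In such bulk samples fewer cells of a type and less RNA per cell cannot be told apart.

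Stromal genes were not the only markers that followed the members. Over 13 marker lists the r with the members' mean was 0.905 for endothelium, 0.876 for macrophages and microglia, 0.851 for granulocytes, 0.834 for pericytes and smooth muscle and 0.767 for choroid plexus epithelium. It was -0.438 for neurons and -0.544 for oligodendrocytes. Macrophages and microglia, the source of C1q in brain, had r = 0.814 without their 2 farthest arrays, the same arrays as for the stromal list, and rho = 0.943 (exact permutation p = 0.0167; 0.19 adjusted over the 13 lists). Without those arrays endothelium, at 0.708, and pericytes and smooth muscle, at 0.574, also kept an r above 0. Over the 4 arrays left the members' mean was 8.53 in RAG-/- replicate 1 and between 7.95 and 8.06 in the others. As for the stromal list, r over so few arrays cannot show whether a relation holds or fails, and does not rank the lists. Without their own 2 farthest arrays, which again left 4, granulocytes were at 0.688, adipocytes at 0.717 and choroid plexus epithelium at -0.527. The smallest Pearson p adjusted over the 13 lists was 0.0963, shared by the macrophage, endothelial and adipocyte lists. The adipocyte list, at r = 0.865, had 1 of 7 measured markers above the filter. The macrophage mean was 9.56, 7.53 and 8.44 in WT and 9.06, 7.48 and 8.17 in RAG-/- replicates 1, 2 and 3, highest in the arrays of pair 1 and lowest in those of pair 2. The neuron mean was highest in RAG-/- replicate 2, at 12.47, and between 9.34 and 11.54 elsewhere.

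Among all other genes with an SD of at least 0.3, those most like the members' mean over the 6 arrays were Islr (r = 0.994), Atp5e (0.993), a subunit of mitochondrial ATP synthase, Coch (0.992), Plscr1 (0.991), an interferon-induced scramblase, Lefty1 (0.990) and Fbln1 (0.987). With 9583 candidates, 247 of which had an r over 0.9, such values are a description. Coch, for example, was at 10.89, 9.56 and 9.69 in WT and at 10.40, 7.75 and 9.80 in RAG-/- replicates 1, 2 and 3, again highest in WT replicate 1 and lowest in RAG-/- replicate 2.

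The rest of the complement pathway showed no common direction. Of 51 other complement genes listed, 42 were measured and 23 passed the brightness filter. By description 12 of these 23 were lower and 11 higher in RAG-/-, with a median of -0.01, and limma called 0 lower and 0 higher (0% of all probe sets were called). By title 12 were lower again, with a median of -0.03, and 0 were called. Of 8 initiators of the classical and lectin pathways 3 were lower, of 8 regulators 5, of 3 receptors 2, of 2 alternative pathway genes 2 and of 2 terminal components 0.

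C1q, the recognition unit to which C1r and C1s bind, did not share the full array order of its proteases, which only 0.266% of genes had. C1qa was at 9.50, 7.57 and 7.74 in WT and at 9.86, 8.14 and 7.43 in RAG-/- replicates 1, 2 and 3, high in both arrays of pair 1 and low in the other 4. C1qb was at 10.19, 7.77 and 9.90 in WT and at 9.96, 7.74 and 9.28 in RAG-/-, high in pairs 1 and 3 and low in pair 2. Like the proteases, C1qb was highest in WT replicate 1, but RAG-/- replicate 2, its lowest array, was close to WT replicate 2. These C1qb values are of the brightest of its 3 probe sets, whose name ends in _x_at. C1qc was at 9.47, 8.19 and 7.54 in WT and at 9.78, 8.61 and 7.53 in RAG-/-, and unlike C1qb was low in WT replicate 3. The differences were 0.20 for C1qa (SE 0.71), -0.29 for C1qb (SE 0.75) and 0.24 for C1qc (SE 0.66), each with a limma adjusted p of 1.

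Of the other pathway genes above the brightness filter, the lowest differences by description were those of Cd59a, Cd93 and Colec12. Cd59a, which blocks the membrane attack complex, was at 10.74, 11.86 and 12.35 in WT and at 12.67, 8.70 and 10.13 in RAG-/- replicates 1, 2 and 3. It differed by -1.15 (SE 0.91) by description and by -2.44 (SE 0.50) by title, where the groups did not overlap, as for 2.53% of genes (limma adjusted p = 1 under both readings). Cd59a lies on chromosome 2, like Rag1, Rag2 and Serping1. Cd93, a receptor of endothelium and myeloid cells, differed by -0.90 (SE 0.37) without overlap, as for 1.41% of genes, and by -0.22 by title. Colec12, a scavenger receptor with a collagen domain, differed by -0.75 (SE 0.48), and by -0.04 by title.

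The highest differences above the filter were 0.87 for Susd4 (SE 0.57), a complement regulator, 0.81 for Fcna (SE 0.62), the lectin ficolin A, and 0.80 for Cd46 (SE 0.47), a cofactor for cleavage of C3b. The groups did not overlap for Susd4, as for 1.69% of genes, and RAG-/- replicate 2, at 11.48, carried its difference, since the other arrays were between 9.08 and 9.29. Fcna was at 6.47, 5.13 and 5.53 in WT and at 5.18, 7.16 and 7.22 in RAG-/- replicates 1, 2 and 3. By title its difference was 1.67 (SE 0.36) without overlap, as for 2.2% of genes, but did not pass the limma threshold, and Cd46 turned to -0.11. Fcna and Cd46 were just above the filter, at percentiles 41.2 and 43.5. Their deposited intensities ran from 17.35 to 138.57 and from 15.45 to 117.65, and ratios at such dim levels depend on the background estimate. Clu, the abundant fluid-phase regulator clusterin, lay near the top of the brightness ranking, between 14.65 and 14.87, a range in which quantile normalization allows only small differences.

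**Figure D4:**
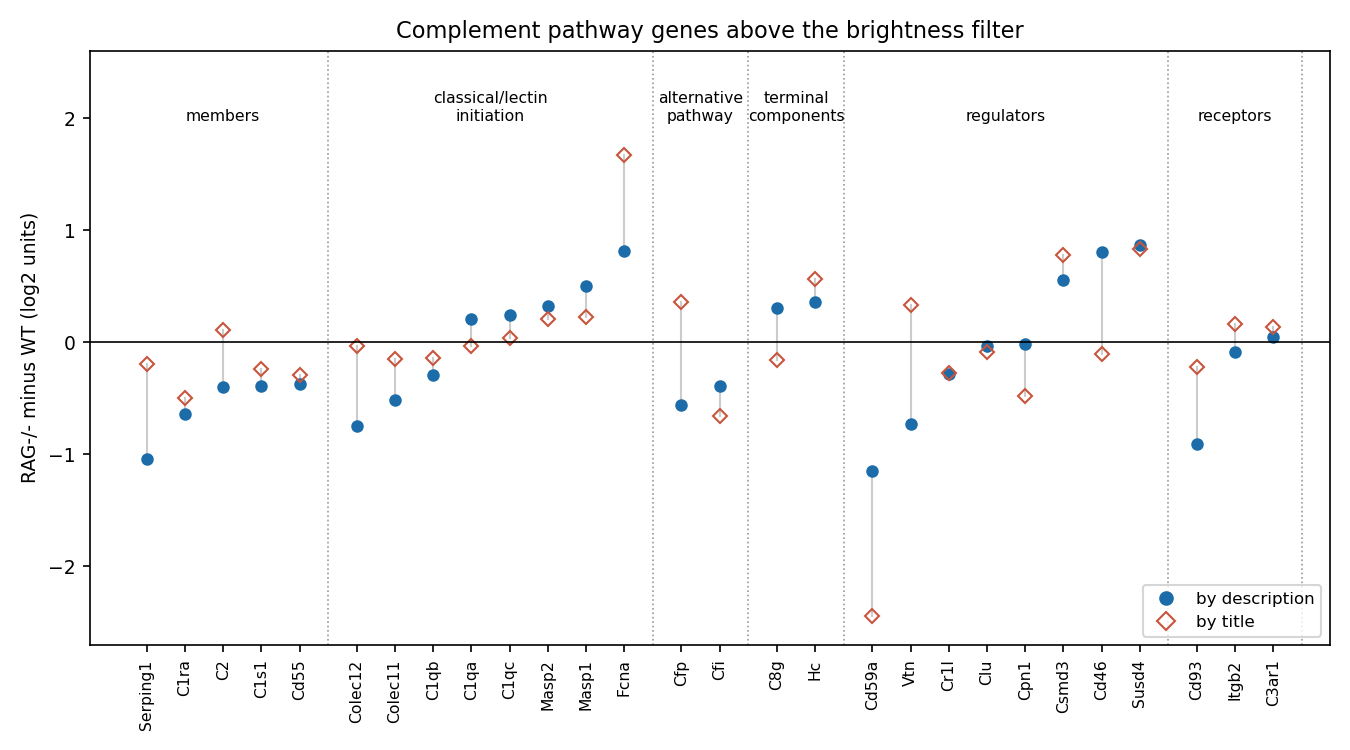
RAG-/- minus WT in log2 units for the 5 members above the brightness filter and 23 other complement genes, grouped by role; filled circles are differences by description and open diamonds by title, joined by a grey line for each gene. Points lie on both sides of 0 in the initiator and regulator groups, and Cd59a (-1.15 and -2.44) and Fcna (0.81 and 1.67) lie farthest from 0 by title.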

How the data were processed

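Linear intensities of 45101 probe sets on 6 arrays were used as the authors deposited them, while software and normalization were not given in the sources used here. Each array's mean, after trimming 2% of values at either end, was 500.0, so arrays had been scaled to a common brightness. Depth has no meaning for arrays, and the number of arrays limits the precision.

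The 64 control probe sets were left out. Of the remaining 45037, 34945 had 1 gene symbol, 932 several and 9160 none, and 34741 matched the GRCm38.p6 gene table by gene number. Values were log2(intensity + 16), quantile normalized because 75th percentiles differed by 0.232. Probe sets in the lowest 40% of mean value were dropped, which left 27022, and the brightest probe set stood for a gene. Differences were tested with limma 3.58.1 in R 4.3.3 (lmFit, eBayes with trend, two-sided, Benjamini-Hochberg), a procedure tested on simulated data. Correlations used exact permutation tests.

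The members and lists were chosen with earlier results of these data known. All 9 members were to be named. Of the pathway genes kept by the filter, the 3 lowest and 3 highest differences were named, with 4 stromal genes and 6 other genes by r. C1q, Clu and Rag1 were named after their values were seen or as checks.

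Within pairs 1, 2 and 3 the deviations of same-code arrays from their group means had correlations of 0.287, 0.394 and 0.577, and across pairs they lay between -0.418 and 0.00937, so the title codes were taken to pair the samples.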

Additional observations from a re-analysis of the deposited data

How the results depend on the processing

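No member gene passed the limma threshold in the alternatives run: groups by title, the pair as a block, other scalings and pseudocounts, array weights, the mean over a gene's probe sets, single arrays left out and pair 1 left out. With the pair as a replicate block the count of probe sets past the threshold was 0 by description (636 at an unadjusted p under 0.05) and 1 by title, namely Pttg1, and the block changed no call of a member. Without single arrays that count ran from 0 to 4. The 4 appeared without RAG-/- replicate 2, and were Xist and 3 unnamed probe sets. Of 96 differences of members under alternatives, 4 changed sign. C2 was at 0.11 by title with and without the block. Without single arrays Cfb ran from -0.14, without RAG-/- replicate 1, to 1.01, and Cd55 from -0.77 to 0.28, without RAG-/- replicate 2. The members' median ran from -0.65 to -0.15 and their count lower from 4 to 6 without single arrays. With pair 1 left out, 5 members were lower, with a median of -0.47. The correlation of the members' mean with the stromal mean ran from 0.77 to 0.99 without single arrays, each with an exact permutation p over 0.05, and with 5 arrays fewer orders exist. In an alternative chosen after seeing the data, with intensities as deposited, 1 member, C1ra, shared the array order of Serping1 in place of 2. The cause was not tested.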
